A study of Mus musculus with 66 samples.

Results

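Enteroendocrine and tuft cells are rare secretory and sensory cells of the small intestinal epithelium, and 10 genes that mark them were followed across organoid cultures. Reg4, Chga, Chgb, Pcsk1 and Scg5 mark enteroendocrine cells, and Dclk1, Avil, Hpgds, Ptgs1 and Alox5 mark tuft cells. They were chosen by name. Of the 10 genes, 8 had a transcript among the 8978 gene symbols of the RNA table, whose index was limited to transcripts with a quantified protein, and the RNA of Scg5 and Hpgds was not analysed here. All 10 were looked up among the chromatin regions. All cultures used here were mouse small intestinal organoids Lgr5 GFPDTR/+, which carry a GFP and diphtheria toxin receptor reporter at 1 copy of the stem cell gene Lgr5. ENR organoids grew in regular medium with EGF, Noggin and R-Spondin-1. CV organoids received ENR medium with 3 uM CHIR99021 and 1 mM valproic acid for 5 days, a mixture used to enrich stem cells. EN organoids were kept without R-Spondin-1 for 2.5 days, which depletes stem cells and favours enterocytes. RNA and accessible chromatin (ATAC-seq) were each profiled in 4 libraries of a culture. Scores of H3K27ac, H3K4me3 and H3K27me3 were used from 3 libraries per culture, and Hnf4g ChIPmentation had 1 library per culture. The labels number the libraries without saying whether they were separate cultures or animals, so that p-values measure the spread between these libraries only.

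Enteroendocrine cells sense nutrients at the gut surface and release peptide hormones and serotonin from dense-core granules. Granins such as chromogranin A and B help to pack these granules, and prohormone convertases cut hormone precursors inside them. Tuft cells are chemosensory cells with a bundle of actin-rich microvilli and taste-type signalling, and they make prostaglandins and leukotrienes from arachidonic acid during responses to parasites. Both cell types arise from the Lgr5+ stem cells at the base of the crypt.

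RNA libraries held between 5630977 and 8859757 expected counts, and 3 counts, taken as the smallest detectable level, were worth 0.361 to 0.642 counts-per-million (CPM). Known cell type markers separated EN from the other cultures. All 12 enterocyte markers in a list of 12 were higher in EN than in CV, with summed levels of 70950 to 73550 CPM in EN, 9472 to 10030 CPM in CV and 11500 to 12980 CPM in ENR. All 7 stem cell markers in the table were lower in EN, and between CV and ENR 2 of them were higher in CV, 4 were lower and 1 was not called. Most of their summed level in ENR was Olfm4, with means of 10.9 CPM in CV, 1229 in ENR and 0.594 in EN. Goblet cell markers also moved with the enteroendocrine and tuft genes described below. All 7 that were tested rose from CV to EN and from ENR to EN, and their sums were 867 to 960 CPM in CV, 1975 to 2138 in ENR and 10280 to 11540 in EN. Paneth cell markers went the other way between ENR and EN, where all 10 transcripts tested were lower in EN. Their sums were 3841 to 4335 CPM in CV, 7437 to 7883 in ENR and 2164 to 2451 in EN.

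Short stretches of the members' promoters were searched for sequence motifs, and those that hold a motif are shown because the chromatin of the same promoters is described below. The windows ran from 250 bases before to 50 bases after each start in the RefSeq promoter table and were placed on the mm9 genome by exact match. There were 11 windows for the 10 genes, each matched once, against 32851 windows of all genes. Motifs were searched on both strands and are written in capitals, 5′ to 3′ along the gene's own strand. The octamer ATGCAAAT, the letters read by POU factors, which include the tuft cell factor Pou2f3, was found in the window of Hpgds and in 1.74% of all windows. The cAMP response element TGACGTCA was found in those of Chgb and Pcsk1 and in 1.79% of all. A TCF motif was found in those of Dclk1 (CTTTGAT, 3.73% of all) and Pcsk1 (CTTTGAA, 5.14% of all), and TATAAA in that of Chga (13.6% of all). TATAAA at Chga began 5 bases after the RefSeq start and lay before the GENCODE start of the gene. The cAMP response element of Chgb lay in an annotated untranslated part of an exon. The E-box CATCTG and the Hnf4 motif CAAAGTCCA, found in 17.2% and 0.475% of all windows, were in none of the 11. A motif is a description of the letters and no sign that a factor binds there.
Hpgds octamer, chr6:65094880-65094909, minus strand: ctttactctttATGCAAATacgttggacta
Chgb cAMP response element, chr2:132607295-132607324, plus strand: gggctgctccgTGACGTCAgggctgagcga
Pcsk1 cAMP response element, chr13:75227216-75227245, plus strand: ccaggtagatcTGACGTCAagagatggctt
Pcsk1 TCF motif, chr13:75227055-75227084, plus strand: gcggttctCTTTGAAgaatggagatgtttc
Dclk1 TCF motif, chr3:55046122-55046151, plus strand: cctctggtctcCTTTGATgaaggcgacctc
Chga TATA box, chr12:103793144-103793173, plus strand: cgtgtgcgtgtaTATAAAagccggcatagc

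All 8 transcripts measured were higher in EN than in CV and higher in EN than in ENR, and 7 of them were lower in CV than in ENR. Expected counts were compared with edgeR's quasi-likelihood test in 1 fit of the 12 libraries, with Benjamini-Hochberg adjustment over 9288 transcripts, and calls were made at an adjusted p under 0.01. Such calls were common in these cultures. Of all transcripts tested, 35.2% were called higher in EN than in CV, 35.5% higher in EN than in ENR, 29.8% lower in CV than in ENR and 30.2% higher in CV than in ENR. Calls in the other direction were 41.2% for EN below CV and 37.2% for EN below ENR. The 4 libraries of EN lay above those of CV without overlap in 34.9% of transcripts and above those of ENR in 36.3%, and those of CV lay below those of ENR in 32.6% and above them in 33%. The median log2 fold change of the 8 members was 5.77 from CV to EN, beside -0.08 over all transcripts. Between ENR and EN it was 1.70 beside -0.01, and for CV against ENR it was -3.84 beside -0.01. Alox5 had too few counts in CV for its fitted value to be exact. With Alox5 at the limit of its counting interval nearest to no change, the members' medians were 5.44 between EN and CV and -3.71 between CV and ENR. In 7 of the 8 members the libraries rose from CV to ENR to EN with no overlap between cultures, an order that 11.6% of all transcripts had. In these bulk libraries fewer cells of a type and less RNA per cell cannot be told apart.

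**Figure D1:**
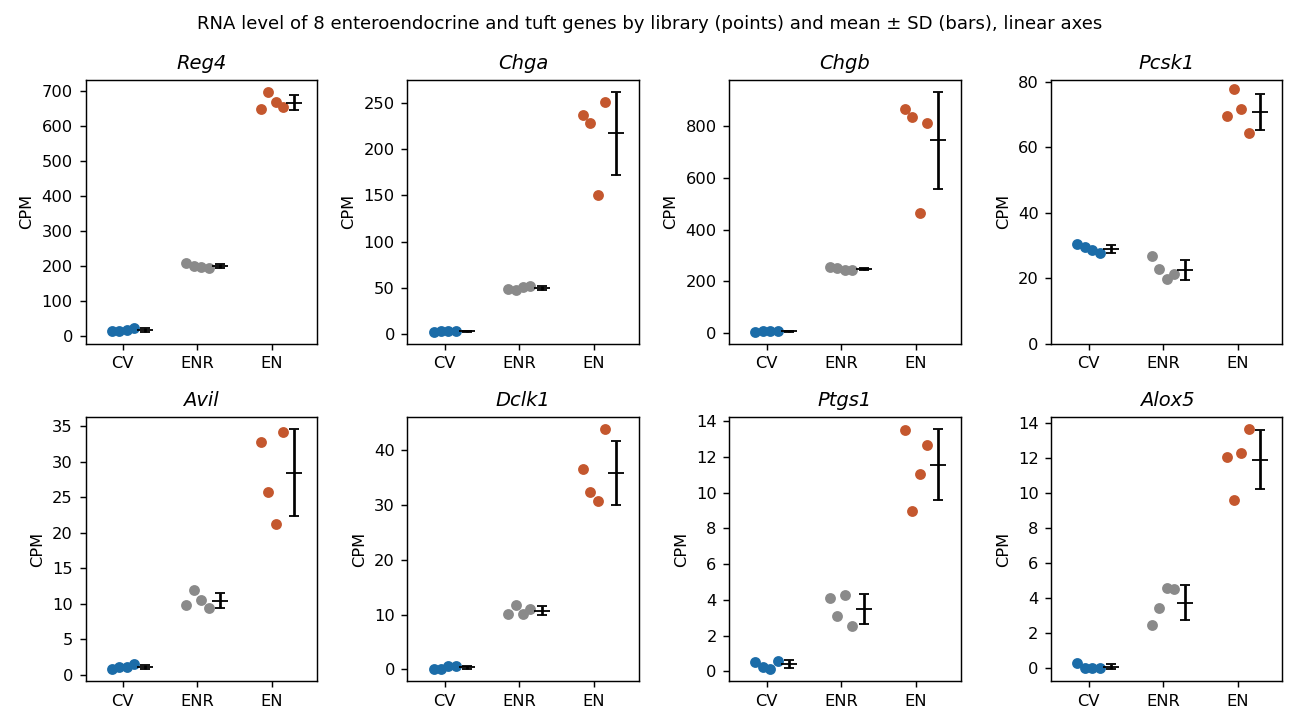
RNA level of the 8 measured genes in each library, as CPM on a linear axis that differs between genes, for CV, ENR and EN (points are the 4 libraries of a culture, and marks with bars are the mean ± SD). Levels rose from CV to ENR to EN in every panel except Pcsk1, where the ENR libraries (19.6 to 26.6 CPM) lay below the CV libraries (27.7 to 30.5 CPM).

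Reg4 (NM_026328.2, chr3:98026079-98040671 on mm9) encodes a secreted lectin of the Reg family that marks enteroendocrine and other deep crypt secretory cells. It had 15.4, 13.8, 18.3 and 24.3 CPM in the 4 CV libraries, 207, 199, 197 and 195 in ENR and 647, 697, 667 and 653 in EN. The 3 cultures did not overlap, and the libraries of ENR and of EN lay close together. Reg4 was 3.34-fold higher in EN than in ENR (log2 fold change 1.74, SE 0.08, adjusted p = 6.89e-12 in edgeR) and 36.8-fold higher than in CV (5.20, SE 0.10, adjusted p = 4.19e-16). It was lower in CV than in ENR by a log2 fold change of -3.46 (SE 0.10, adjusted p = 4.08e-13 in edgeR).

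Chga (NM_007693.2, chr12:103793179-103803237) and Chgb (NM_007694.4, chr2:132607014-132620815) encode chromogranin A and B, acidic proteins stored with hormones in dense-core granules. Chga had 2.43, 2.80, 2.78 and 2.65 CPM in CV, 48.3, 47.5, 50.4 and 52.2 in ENR and 237, 229, 151 and 252 in EN. Chgb had 6.33, 8.41, 6.89 and 8.92 CPM in CV, 255, 251, 246 and 244 in ENR and 868, 838, 465 and 812 in EN. Neither gene overlapped between cultures, and EN replicate 3 was the lowest of its culture for both. Chga was 4.38-fold higher in EN than in ENR (log2 fold change 2.13, SE 0.12, adjusted p = 2.32e-10 in edgeR) and Chgb was higher by a log2 fold change of 1.58 (SE 0.14, adjusted p = 5.18e-08). Without EN replicate 3 the values were 2.27 for Chga and 1.75 for Chgb. Against CV the rises in EN were 81.1-fold for Chga (6.34, SE 0.19, adjusted p = 6.78e-14) and 97.1-fold for Chgb (6.60, SE 0.21, adjusted p = 1.79e-13). Both were lower in CV than in ENR, by -4.21 (SE 0.22, adjusted p = 2.53e-10) for Chga and -5.02 (SE 0.22, adjusted p = 3.97e-11) for Chgb on the log2 scale. The deposited counts of Chga were not whole, since its reads were shared in the estimate with another transcript of the index, and its values are less certain for that reason.

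Pcsk1 (NM_013628.2, chr13:75227274-75269946) encodes the prohormone convertase that cuts precursors such as proglucagon and proopiomelanocortin. Its levels were 30.5, 29.4, 28.5 and 27.7 CPM in CV, 26.6, 22.7, 19.6 and 21.3 in ENR and 69.4, 77.7, 71.7 and 64.5 in EN. Here CV lay above ENR, while EN lay above both, again without overlap. Pcsk1 was higher in EN than in ENR by a log2 fold change of 1.64 (SE 0.09, adjusted p = 6.2e-11 in edgeR), near the members' median. Against CV it was 2.43-fold higher in EN (1.28, SE 0.08, adjusted p = 6.82e-10). The difference between CV and ENR was small, 0.36 (SE 0.09, adjusted p = 0.00238). With library sizes set by the spike-in transcripts this last difference was 0.27 and not called (adjusted p = 0.251), and over 23 other settings it lay between 0.27 and 0.73.

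Among the tuft cell genes, Dclk1 (NM_001195538.1, chr3:55046448-55342986) encodes a microtubule-associated kinase and is the most used marker of these cells. It counted 1, 1, 5 and 5 reads in the CV libraries, 79, 72, 66 and 87 in ENR and 272, 151, 172 and 304 in EN. These counts correspond to 0.134 to 0.663 CPM in CV, 10.0 to 11.8 in ENR and 30.7 to 43.8 in EN, so that some CV libraries were under the detection floor of 3 counts. The ratio of Dclk1 per library size was 93.3 between EN and CV, with a 95% exact counting interval of 53.2 to 181. In edgeR Dclk1 was higher in EN than in ENR by a log2 fold change of 1.75 (SE 0.15, adjusted p = 3.21e-08) and lower in CV than in ENR by -4.72 (SE 0.28, adjusted p = 1.13e-09).

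Avil (NM_009635.3, chr10:126437765-126458050) encodes advillin, an actin-binding protein of the villin family found in the tuft. It had 0.809, 1.07, 1.06 and 1.45 CPM in CV, 9.86, 11.9, 10.5 and 9.44 in ENR and 32.8, 25.7, 21.2 and 34.3 in EN. Avil had the smallest rise of the 8 genes between ENR and EN, 2.76-fold (1.46, SE 0.15, adjusted p = 2.85e-07 in edgeR), still with no overlap between the cultures. It was 25.6-fold higher in EN than in CV (4.68, SE 0.21, adjusted p = 7.74e-12) and lower in CV than in ENR by -3.21 (SE 0.22, adjusted p = 6.47e-09).

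Ptgs1 (XM_006497794.3, chr2:36085946-36107792) and Alox5 (NM_009662.2, chr6:116360095-116411196) encode the cyclooxygenase and the lipoxygenase with which tuft cells begin the synthesis of prostaglandins and leukotrienes. Ptgs1 had 0.539, 0.267, 0.133 and 0.602 CPM in CV, 4.10, 3.11, 4.25 and 2.52 in ENR and 13.5, 8.99, 11.1 and 12.7 in EN. The CV libraries counted 4, 2, 1 and 5 reads of it, and the ratio of EN to CV was 30.4 with a counting interval of 17.2 to 59.6. Alox5 had 0.270 CPM in CV replicate 1, from 2 counts, and no count in the other CV libraries. Its levels were 2.43, 3.44, 4.55 and 4.53 CPM in ENR and 12.1, 9.63, 12.3 and 13.7 CPM in EN. The ratio of EN to CV for Alox5 was 186, with a counting interval of 51.1 to 1550, and that of CV to ENR was 0.0175 with an interval of 0.00209 to 0.0646. Between ENR and EN both genes moved by nearly the same size, with log2 fold changes of 1.73 for Ptgs1 (SE 0.23, adjusted p = 5.22e-06 in edgeR) and 1.68 for Alox5 (SE 0.26, adjusted p = 2.94e-05). Both were also called lower in CV than in ENR, with adjusted p = 1.22e-06 for Ptgs1 and 2.68e-07 for Alox5 in edgeR, and higher in EN than in CV, with 8.76e-10 and 9.44e-10.

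**Figure D2:**
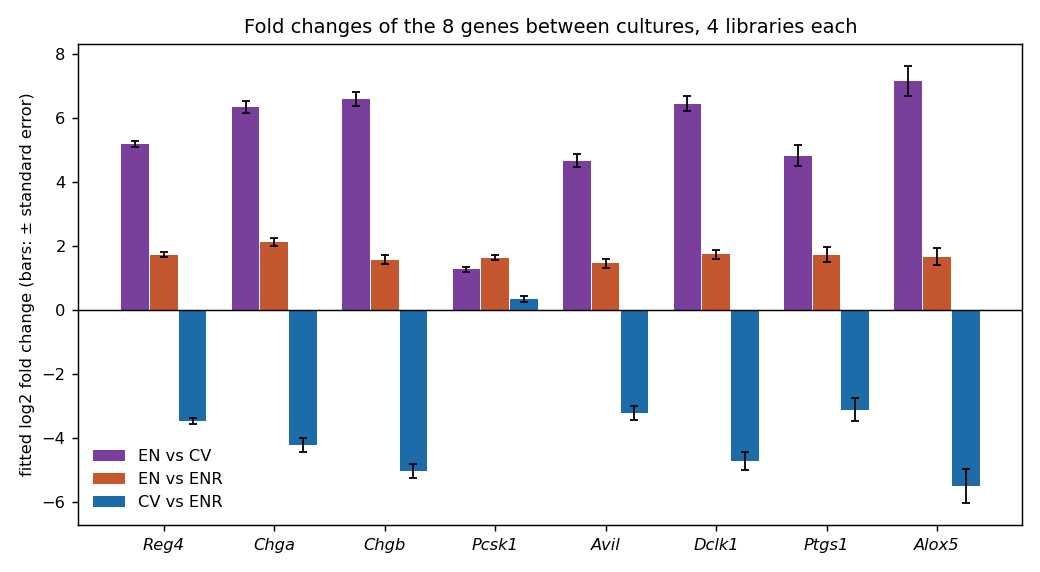
Log2 fold change of each gene between cultures, fitted by edgeR (coloured bars) with ± a standard error derived from the F statistic of the test (thin bars). Shown are EN against CV, EN against ENR and CV against ENR. The EN against ENR values run from 1.46 to 2.13, while those against CV run from 1.28 for Pcsk1 to 7.17 for Alox5, whose CV level rests on 2 counts.

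Levels of the genes were set beside each other as transcripts-per-million (TPM), which allows for transcript length. In EN the order was Reg4 (998.6 ± 13.5 TPM, SD, n = 4), Chgb (369 ± 95.4), Chga (158 ± 33.7), Pcsk1 (38.3 ± 2.70), Avil (12.6 ± 2.84), Dclk1 (5.92 ± 0.980), Alox5 (5.69 ± 0.828) and Ptgs1 (4.92 ± 0.909). The last 3 did not differ beyond their spread, whereas the levels above them were apart. In ENR the order was the same down to Avil, with means of 337, 138, 40.3, 13.6 and 5.16 TPM, and the other three tuft genes lay between 1.66 and 2.00 TPM. In CV the order changed at the second place. Reg4 had 33.8 ± 9.20 TPM and Pcsk1 19.6 ± 0.739 TPM, above Chgb with 4.71 ± 0.780 TPM and Chga with 2.41 ± 0.185 TPM, and all tuft genes were at or under 0.605 TPM.

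The makeup of each group was followed as the share of its summed TPM. The 4 enteroendocrine transcripts summed to 60.5 ± 9.13 TPM in CV, 528.5 ± 9.69 TPM in ENR and 1564 ± 128 TPM in EN. Pcsk1 held 32.9% ± 5.42 of the sum in CV, 2.58% ± 0.292 in ENR and 2.46% ± 0.275 in EN. Chgb moved the other way, with 7.85% ± 1.27 in CV, 26.1% ± 0.167 in ENR and 23.3% ± 4.55 in EN. Reg4 was the largest part of the sum in each culture, with 55.2%, 63.7% and 64.2%. The shares differed between CV and ENR beyond their spread for Pcsk1 and Chgb, while ENR and EN overlapped for these 2 genes and for Reg4. They also differed for Chga, with 3.32 to 4.78% in CV, 7.20 to 8.17% in ENR and 7.91 to 11.4% in EN. The tuft transcripts summed to 0.929 ± 0.229 TPM in CV, 10.8 ± 0.768 TPM in ENR and 29.2 ± 5.03 TPM in EN. Avil held 66.1% ± 13.0, 47.8% ± 3.20 and 43.1% ± 3.73 of it, and Dclk1 held 8.46% ± 6.64, 18.4% ± 1.56 and 20.4% ± 1.13. The tuft shares in CV rest on few counts.

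**Figure D3:**
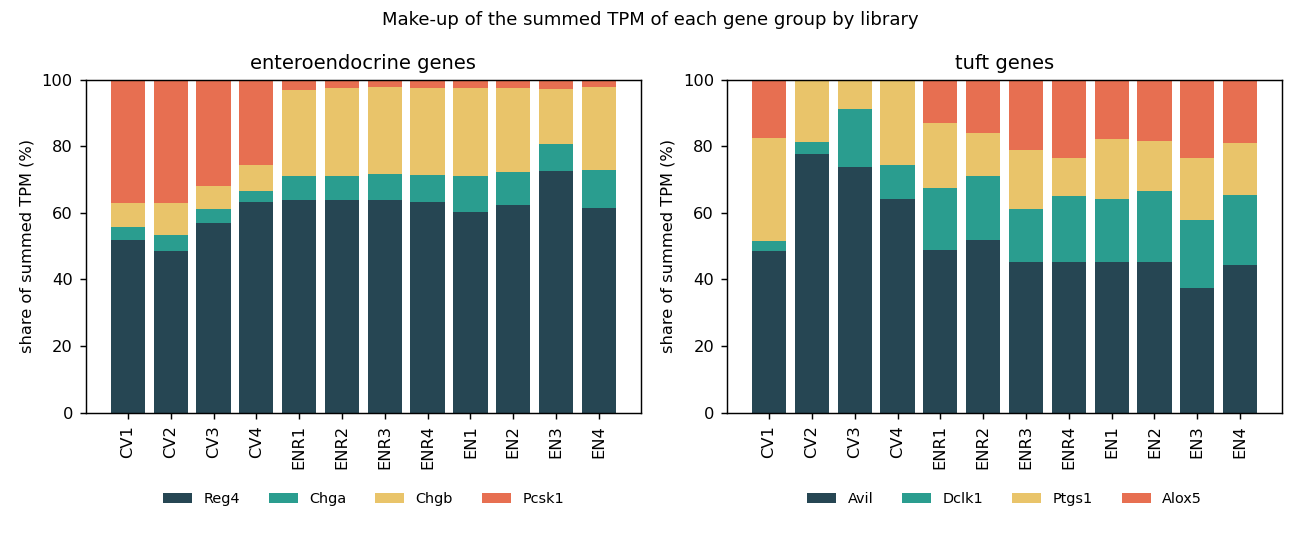
Share of the summed TPM of the enteroendocrine transcripts and of the tuft transcripts that each gene holds, stacked for each library of CV, ENR and EN. Pcsk1 takes 25.7 to 37.1% of the enteroendocrine sum in the CV libraries and at most 2.96% in the others, and Avil takes the largest part of the tuft sum in all libraries.

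For most genes more of the total rise lay between CV and ENR than between ENR and EN. On the scale of log2(CPM + 0.5), the part of the rise from CV to EN that lay between CV and ENR was 66.6% for Reg4, 65.6% for Chga and 76.3% for Chgb. For the tuft genes it was 68.9% for Dclk1, 66.7% for Avil, 57.7% for Ptgs1 and 64.8% for Alox5. The added 0.5 CPM was above the mean CV level of Dclk1 (0.383 CPM), Ptgs1 (0.385 CPM) and Alox5 (0.0674 CPM). The percentages of Dclk1, Ptgs1 and Alox5, and their order, therefore depend on that choice. Pcsk1 had -28.6%, since its ENR level was below its CV level.

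Other genes of enteroendocrine cells were taken from lists by function. Of 14 hormone genes, 6 were in the table, and all 6 were higher in EN than in CV and in ENR and lower in CV than in ENR, with a median of 2.05 between EN and ENR. Gcg, the precursor of glucagon-like peptides, had 0.135, 0.400, 0.398 and 0.964 CPM in CV, 40.6, 40.6, 36.6 and 44.6 in ENR and 163, 150.5, 165 and 167 in EN, a rise of 8.32 on the log2 scale between CV and EN. Ghrl, the precursor of the hunger hormone ghrelin, had 0 to 0.482 CPM in CV, 8.50 to 12.2 in ENR and 35.7 to 44.9 in EN. Sst, encoding somatostatin, had the largest rise of the list between ENR and EN, 3.46, from 0.164 to 0.640 CPM in ENR to 3.85 to 6.16 CPM in EN. The cultures were apart for these 3 hormones, although Sst rested on 1 count in all of CV and on 1 count in the lowest ENR library. Of 20 transcription factors of the lineage, 2 were in the table, Foxa1 and Foxa2, and both were lower in EN than in CV and in ENR, with a median of -1.13 and -1.34. Ddc, which makes serotonin and dopamine from their precursors, rose by 2.94 and 1.86 in EN over CV and ENR, while Gch1, which supplies the cofactor of amine synthesis, was lower than in CV by a log2 fold change of -0.84 and higher than in ENR by 0.88.

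Genes of granules and vesicle release were mixed. Of 32 such genes, 15 were in the table, and 8 of these rose and 4 fell from CV to EN (median 0.80), while 8 rose and 0 fell from ENR to EN (median 0.71). Scg2, a further granin, rose by 4.75 from CV to EN and 1.90 from ENR to EN, with 0.674 to 1.59 CPM in CV, 6.68 to 9.33 in ENR and 24.6 to 35.3 in EN. Rab27a, a small GTPase that docks granules, rose by 3.19 and 1.94. Scgn, a calcium sensor of endocrine cells, counted 180 reads in EN, 125 in ENR and 3 in CV. Its ratio between EN and CV was 74.8 per library size, with a 95% exact counting interval of 25.2 to 366. Scgn rose from CV and was not called against ENR (0.74, adjusted p = 0.0112 in edgeR). The summed CPM of the list did not follow the members, with 636 to 649.5 CPM in CV, 424 to 431 in ENR and 561 to 600.5 in EN. Cpd was the largest part of that sum, with means of 374.4 CPM in CV, 214.7 in ENR and 215.1 in EN.

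Other tuft cell genes were fewer in the table. Of 28 genes of taste-type signalling 9 were present, and 5 of these rose and 3 fell from CV to EN (median 1.46), while 7 rose and 1 fell from ENR to EN (median 0.90). Trpm5, the cation channel that opens after taste receptor signalling, had 0.404, 1.20, 1.19 and 1.81 CPM in CV, 15.4, 15.2, 14.3 and 15.9 in ENR and 31.5, 23.6, 26.1 and 30.7 in EN. It rose without overlap, by 4.57 from CV and 0.89 from ENR. Inpp5d, a lipid phosphatase of blood and tuft cells, counted 1 read in the CV libraries together, 37 in ENR and 120 in EN. Tspan6, a membrane protein of the same list, was higher in EN than in ENR by 1.24 and did not pass the test against CV (-0.10). The 3 genes that fell from CV to EN were Itpr3 (-0.86), Plcg2 (-0.85) and Itpr2 (-0.79). The summed CPM of this list did not follow the members either, with 482.9 to 547.5 in CV, 361.5 to 392.3 in ENR and 414.3 to 465.7 in EN. Itpr3 was the largest part of that sum, with means of 400.4 CPM in CV, 263.2 in ENR and 221.1 in EN. Of 15 tuft transcription factors and surface proteins 3 were present, and Sox9, which stem and Paneth cells also express, was lower in EN than in CV by a log2 fold change of -3.10 and than in ENR by -2.74. Ptprc, the leukocyte antigen that a subset of tuft cells carries, counted 1 read in CV, 33 in ENR and 67 in EN, and Il13ra1, a receptor chain for interleukin 13, was higher in EN in both comparisons. The cytoskeletal list did not move one way, with 4 of 15 transcripts higher and 8 lower than in CV. Among these, Scin, an actin-severing protein of the villin family, rose by 3.08 from CV and 3.40 from ENR, and the tubulin Tubb5 was lower by -3.63 and -3.61.

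Of 28 genes of eicosanoid synthesis, 18 were present as 20 transcripts, and 12 were higher and 5 lower in EN against CV and against ENR, with medians of 0.65 and 0.71. Ggt1 and Dpep1, peptidases that trim leukotrienes and are also brush border enzymes of enterocytes, rose by 5.79 and 3.93 from CV to EN. Ptgis, the prostacyclin synthase, counted 111 reads in CV, 2 in ENR and 2 in EN, and the ratio of EN to CV was 0.0224 with a counting interval of 0.00269 to 0.083. It was lower in EN than in CV, and Pla2g4a, the phospholipase that frees arachidonic acid, was lower than in ENR by -3.54 in the transcript named by the rule. Alox5ap, which presents arachidonic acid to Alox5 and was chosen after its values were seen, rose by 4.49 from CV and 1.41 from ENR. Of 9 genes of the doublecortin-like kinase and Reg families 4 were present, all Reg genes. Reg1 and Reg3a, the members with the largest rises, were higher in EN than in ENR by 3.72 and 3.48, beside 1.74 for Reg4.

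Markers of blood cells were examined because Hpgds, Ptgs1 and Alox5 are also made by mast cells and macrophages. Of 18 such markers 7 were in the table and 4 could be tested, and 3 rose and 1 fell from CV to EN. Their summed level was 9.57 to 11.8 CPM in CV, 24.5 to 29.0 in ENR and 22.8 to 33.0 in EN. The T cell marker Cd3e and the mast cell protease Mcpt2 had no count in any library, and Coro1a had none in ENR and EN. Itgam, a myeloid integrin, averaged 4.29 CPM in CV, 6.58 in ENR and 14.9 in EN, and Kit, present on mast cells, averaged 4.75 CPM in CV, 19.0 in ENR and 11.04 in EN. Between ENR and EN 2 of the 4 rose, 1 fell and 1 was not called, and the one that fell was Kit (-0.81, adjusted p = 0.000233 in edgeR). Mesenchymal and endothelial markers summed to at most 8.49, 8.84 and 26.3 CPM in CV, ENR and EN, and of 5 tested 1 rose, Vim, and 1 fell, Des, between CV and EN. The part of these cells in the tuft cell values was not tested.

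The transcripts most like each group were named from the correlation with its mean standardized log2(CPM + 1) over 12 libraries, which share 3 cultures, so that r is a description. For the enteroendocrine group they were Ces1e (r = 0.9985), Dhrs3 (0.9983), Pcsk5 (0.9981), Bco2 (0.998) and Rdh7 (0.9978). Ces1e had 13.6 CPM in CV, 61.6 in ENR and 298 in EN. For the tuft group they were Erbb3 (0.9977), Baz2b (0.9968), Gip (0.9967), Cfb (0.9965) and Plekhh1 (0.996). Gip, which encodes a hormone of enteroendocrine K cells, had 12.8, 130.3 and 509 CPM.

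Chromatin was described for all 10 genes, including Hpgds and Scg5. Of 94469 regions in the authors' union of peaks, 44 lay in the members' genes or within 20000 bp of them. Of the 44, 10 lay within 1000 bp of a start site, at 8 of the genes, and Reg4 and Ptgs1 had none. Each region had a normalized ATAC score, which the authors rounded to whole numbers, with a median over all regions of 5 in CV, 5.25 in ENR and 5.75 in EN. Scores were compared with limma on log2(score + 1) over all regions, at an adjusted p under 0.05. Of the 10 promoter regions, 5 were called in at least 1 of the 3 comparisons, beside 44% of all regions. They did not move one way, and rises in RNA stood beside rises, falls and no called change in accessibility.

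Hpgds (chr6:65067287-65094902), which encodes the prostaglandin D synthase of blood and tuft cells, had the largest ATAC changes. Its promoter region, chr6:65094681-65094983, scored 2, 6, 1 and 5 in CV, 14, 13, 20 and 15 in ENR and 6, 27, 16 and 21 in EN. CV lay below ENR without overlap, and EN replicate 1 lay far below the other EN libraries and met the highest CV score. The region was higher in EN than in CV by 2.05 (SE 0.41, adjusted p = 0.000695 in limma), lower in CV than in ENR by a log2 difference of -2.03 (SE 0.41, adjusted p = 0.00229) and not called for EN against ENR (0.01, adjusted p = 0.998). The octamer shown above overlaps this region, in an exon of the 5′ end of the gene.

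A second region of Hpgds, chr6:65107182-65107783, lay 12580 bp upstream of the start and was chosen after its values were seen. It scored 5, 6, 5 and 5 in CV, 45, 43, 45 and 47 in ENR and 33, 13, 15 and 19 in EN, so that ENR was highest and the cultures did not overlap. The log2 difference was -2.88 for CV against ENR (adjusted p = 6.26e-07 in limma), 1.66 for EN against CV (adjusted p = 2.04e-05) and -1.22 for EN against ENR (adjusted p = 0.000842). H3K27ac, a mark of active regulatory regions, scored 1, 1 and 3 in CV, 7, 8 and 15 in ENR and 10, 4 and 5 in EN there, and was not called (CV against ENR -2.06, adjusted p = 0.0794). The middle 300 bases of the region hold no annotated exon and none of the motifs searched, and are shown because this was the largest ATAC difference among the members between CV and ENR.
Hpgds upstream region, chr6:65107333-65107632, minus strand: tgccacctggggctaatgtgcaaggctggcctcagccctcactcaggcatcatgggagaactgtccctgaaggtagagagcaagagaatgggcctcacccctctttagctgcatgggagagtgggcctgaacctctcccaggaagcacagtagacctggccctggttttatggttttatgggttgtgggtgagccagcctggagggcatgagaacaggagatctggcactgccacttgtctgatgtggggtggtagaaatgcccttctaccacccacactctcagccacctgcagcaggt

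On the other side of Hpgds, a region 26631 bp from the start and past the gene's end, chr6:65061447-65061821, rose in the order of the tuft cell RNAs. It scored 4, 5, 6 and 5 in CV, 9, 13, 14 and 13 in ENR and 18, 19, 30 and 30 in EN, again without overlap. The log2 differences were 2.05 for EN against CV (adjusted p = 2.58e-06 in limma), 0.91 for EN against ENR (adjusted p = 0.00828) and -1.14 for CV against ENR (adjusted p = 0.00278). The RNA of Hpgds itself was not analysed here.

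The promoter region of Avil, chr10:126437840-126437969, scored 1, 2, 2 and 0 in CV, 4, 3, 4 and 3 in ENR and 17, 5, 7 and 5 in EN. The scores rose from CV to ENR to EN without overlap, and EN replicate 1 stood well above the other EN libraries. EN against CV was called (2.04, SE 0.41, adjusted p = 0.000644 in limma), and it held without that library. CV against ENR was not called (-1.12, adjusted p = 0.0697 in limma) but was with the replicate number as a block (adjusted p = 0.0453). The 250 bases before the start hold none of the motifs searched and are shown because both the score and the RNA were highest in EN. They lie outside the scored region, which begins past the start, and overlap no region of the gene.
Avil promoter, chr10:126437515-126437764, plus strand: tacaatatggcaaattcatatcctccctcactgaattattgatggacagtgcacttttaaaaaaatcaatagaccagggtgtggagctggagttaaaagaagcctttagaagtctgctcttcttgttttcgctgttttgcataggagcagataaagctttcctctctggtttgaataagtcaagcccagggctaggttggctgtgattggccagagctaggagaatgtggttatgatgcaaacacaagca

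**Figure D4:**
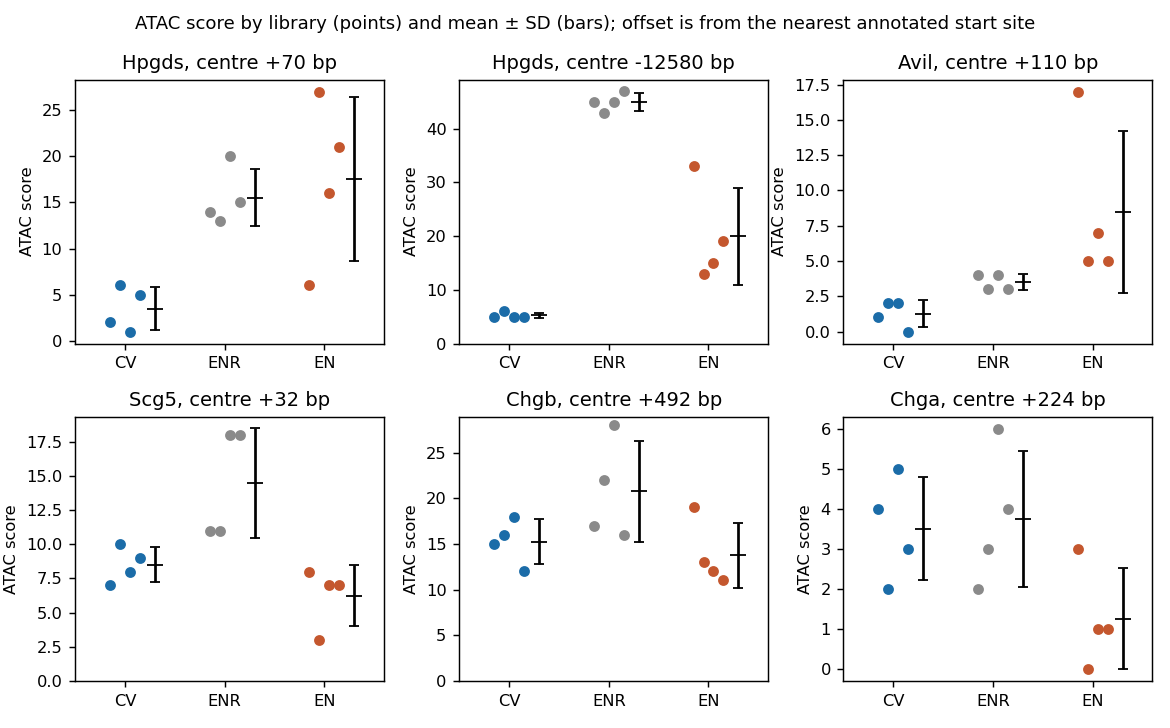
ATAC score of single regions near Hpgds, Avil, Scg5, Chgb and Chga in each library of CV, ENR and EN (points are libraries, and marks with bars are the mean ± SD). The Hpgds promoter region and the region 12580 bp upstream are lowest in CV, Avil is highest in EN, and the mean scores of Scg5 and Chga are lowest in EN.

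No enteroendocrine promoter region was called higher in EN. Scg5 (chr2:113616519-113669278), which encodes a chaperone of a prohormone convertase, had a promoter region at chr2:113669134-113669359 with scores of 7, 10, 8 and 9 in CV, 11, 11, 18 and 18 in ENR and 8, 3, 7 and 7 in EN. EN lay below ENR without overlap (log2 difference -1.12, SE 0.28, adjusted p = 0.00654 in limma). The region at Chga, chr12:103793331-103793474, scored 4, 2, 5 and 3 in CV, 2, 3, 6 and 4 in ENR and 3, 0, 1 and 1 in EN. It was called lower in EN than in CV (-1.12, adjusted p = 0.0407) and than in ENR (-1.18, adjusted p = 0.0441), while the RNA of Chga was highest in EN. Both calls rest on low scores and were lost under most other settings, with adjusted p up to 0.132 and 0.142, for example without EN replicate 2, which scored 0. The region at Chgb that holds its cAMP response element at the edge, chr2:132607308-132607705, scored 15, 16, 18 and 12 in CV, 17, 22, 28 and 16 in ENR and 19, 13, 12 and 11 in EN. The cultures overlapped there, and Chgb was open to a like score in CV, where its RNA was at 7.64 ± 1.22 CPM. The region over the cAMP response element of Pcsk1, chr13:75227203-75228195, scored 8, 8, 4 and 10 in CV, 8, 8, 6 and 10 in ENR and 14, 7, 13 and 13 in EN. It was not called, with a log2 difference of 0.60 between EN and CV (adjusted p = 0.113 in limma).

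Of the other tuft promoters, Dclk1 had 2 regions and Alox5 had 1. The first of Dclk1, chr3:55045786-55045904, scored 3, 4, 4 and 3 in CV, 0, 1, 1 and 0 in ENR and 2, 1, 1 and 1 in EN. It was higher in CV than in ENR by 1.66 (adjusted p = 0.00337 in limma), opposite to the RNA of Dclk1. All of these scores were below the median of all regions. The call of EN against CV at this region (-1.02, adjusted p = 0.0313) was lost when any 1 of CV replicates 2 and 3 or EN replicates 2, 3 and 4 was left out. The region at Alox5, chr6:116411108-116411243, had scores of at most 3 in every library and was not called. A larger region 15408 bp upstream of Dclk1, chr3:55030746-55031335, chosen after its values were seen, scored 67, 52, 56 and 59 in CV, 41, 41, 45 and 31 in ENR and 84, 79, 93 and 93 in EN. It was highest in EN and lowest in ENR, with log2 differences of 1.13 for EN against ENR (adjusted p = 1.28e-05 in limma), 0.57 for EN against CV (adjusted p = 0.00303) and 0.56 for CV against ENR (adjusted p = 0.00877).

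Over all 44 regions, 8 were higher and 6 lower in EN than in CV, beside 19.6% and 15.6% of all regions. Between EN and ENR 3 were higher and 5 lower, beside 11.6% and 12.5%. Between CV and ENR 2 were higher and 7 lower in CV, beside 5.11% and 10.7%. Several of these calls changed when a single library was left out. Of the EN against CV calls, 5 of the 8 higher and 2 of the 6 lower were made in all 16 alternatives as well. With any 1 library left out, 5 to 9 were called higher, with 5 without CV replicate 1 or EN replicate 4. Called lower were 2 to 6, with 2 without EN replicate 3 and 3 without CV replicate 1 or 2, EN replicate 2 or 4 or ENR replicate 2. For EN against ENR 2 of the 3 higher and 2 of the 5 lower calls were made throughout. The lower calls there ran from 2 to 7, with 2 or 3 without any library other than EN replicates 1 and 4. For CV against ENR both higher calls and 5 of the 7 lower calls were made throughout. Near Reg4, the gene with the highest RNA level, the region chr3:98046716-98046898 past its end was lower in CV than in ENR (-1.06, adjusted p = 0.0129 in limma), with scores of 2, 3, 3 and 2 against 7, 6, 5 and 7. Near Ptgs1, the region chr2:36069517-36069872, which lay 16252 bp upstream, was lower in EN than in CV (-0.69, adjusted p = 0.00251 in limma), with scores of 32, 24, 23 and 23 against 44, 40, 45 and 37. Both of these regions were chosen after their values were seen.

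None of the 10 promoter regions was called for H3K27ac, for the promoter mark H3K4me3 or for the repressive mark H3K27me3, beside 8.09%, 8.65% and 1.12% of all regions in at least 1 comparison. At an unadjusted p under 0.05 in limma, 2 of the 10 regions passed for each mark. The lowest adjusted p were 0.0535 for H3K27ac, at Avil, where the scores were 6, 4 and 7 in CV, 3, 0 and 5 in ENR and 1, 0 and 1 in EN, 0.0798 for H3K4me3 and 0.306 for H3K27me3. The lowest for H3K4me3 was also at Avil, for EN against CV, where the scores were 0 in all 3 CV libraries, 0, 1 and 1 in ENR and 1 in all 3 EN libraries. H3K27ac at Avil was lowest in EN, where its ATAC score and RNA were highest, without passing the test. H3K27ac and H3K4me3 were scored over the accessible regions themselves, and H3K27me3 over windows of 1000 bp set around them.

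Away from the promoters, H3K27me3 in the window of 1000 bp around chr12:103788875-103789023, 4230 bp upstream of Chga, scored 26, 27 and 25 in CV, 4, 1 and 6 in ENR and 9, 2 and 12 in EN. CV lay above both other cultures, and the difference between CV and ENR was called (2.71, adjusted p = 0.0366 in limma), as in 0.207% of all regions. The call was lost under 7 of 13 other settings, among them without any 1 of the 3 CV libraries or without ENR replicate 3, where the adjusted p was 0.289. Around a region in the gene body of Dclk1, chr3:55126225-55126476, H3K27me3 scored, again over 1000 bp, 205, 133 and 179 in CV, 96, 41 and 60 in ENR and 41, 66 and 50 in EN and was not called (EN against CV -1.71, adjusted p = 0.0626). H3K4me3 was called higher in EN than in ENR in that region, as in 5.48% of all regions (2.04, adjusted p = 0.0273) and in the region 15408 bp upstream of Dclk1 (1.32, adjusted p = 0.0264). With the replicate number as a block these adjusted p were 0.0651 and 0.068, and each call was also lost without any of several single libraries, in the gene body without EN replicate 1 or 4 or ENR replicate 1, 2 or 4. In the upstream region it was lost without EN replicate 2 or ENR replicate 1, 2 or 4. With the block other H3K4me3 calls appeared, all of them higher in EN, 5 against ENR (adjusted p = 0.00783 to 0.046 in limma) and 3 against CV (adjusted p = 0.0137). Of the 8, 7 lay in regions flanking Reg4 and 1 in the region past the end of Hpgds. At chr3:98007401-98007672, chr3:98013151-98013247 and chr3:98013848-98013951, near Reg4, the log2 difference was 1 against both cultures and 0 between CV and ENR. On this scale 1 is the step from a score of 0 to a score of 1. A region scored only in EN passes the filter of 3 libraries above 0 through EN alone and can only be called higher there. The regions named here were chosen after their values were seen.

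Hnf4g, a nuclear receptor of enterocytes, was profiled in 1 library per culture, so that no test was possible. The libraries held 84340 reads in regions for CV, 352600 for ENR and 1816497 for EN, and 3 reads were worth 35.6, 8.51 and 1.65 reads-per-million (RPM). The mean over all regions was 10.6 RPM. No member promoter had a read in CV. The promoter region of Hpgds had 7 reads in ENR (19.9 RPM, 95% exact interval 7.98 to 40.9) and 5 in EN (2.75 RPM, 0.894 to 6.42). In EN the promoter region of Chgb had 7 reads (3.85 RPM, 1.55 to 7.94) and that of Pcsk1 had 6 (3.30 RPM, 1.21 to 7.19), below the mean of all regions, and the other promoters had 0 to 4. Away from the promoters most member regions were also below that mean in EN. Among exceptions, chosen after their values were seen, chr2:113687477-113689476 near Scg5 had 72 reads in EN (39.6 RPM, 31 to 49.9). A region past the end of Avil, chr10:126466880-126468025, had 35 (19.3 RPM, 13.4 to 26.8). Both are long, 1999 and 1145 bp beside a median of 220. In ENR chr3:55126225-55126476 in Dclk1 had 23 (65.2 RPM, 41.4 to 97.9). These intervals cover counting error only, since reads made by PCR are not independent molecules.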

How the data were processed

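The RNA table that the authors deposited holds expected counts, TPM and mRNA copy numbers per transcript, the last scaled to spike-ins, from kallisto 0.43.0 per the submitters' processing notes. Counts were rounded. Transcripts above 0 in at least 4 of 12 libraries (9288 of 9481; 92 spike-in transcripts left out) were tested with edgeR 4.0.16 in R 4.3.3 (TMM, common dispersion 0.00475). CPM used TMM library sizes. The SE of an edgeR log2 fold change was its absolute value divided by the square root of the test's F statistic. The region table that the authors deposited for ATAC-seq and histone marks on mm9 holds a normalized score rounded to whole numbers, made with BWA and MACS2 2.0 per the notes. In it, limma 3.58.1 with trend tested regions above 0 in at least 3 libraries. H3K27ac, H3K4me3 and H3K27me3 libraries are those of the study's list of changed regions. H3K27me3 was scored over 1000 bp windows around the regions. For Hnf4g the authors deposited raw read counts. Depth was 5630977 to 8859757 counts per RNA library. Tested on simulated data, the RNA test found 98% of 2-fold changes with 0 false calls among 9274 transcripts. Only 100 transcripts were changed there, whereas 7096 were called between EN and CV in the data. The simulation therefore does not test the scaling where most transcripts change. The simulated ATAC test found 95.5% of 4-fold changes with 8 false calls among 94166 regions. Only 200 regions were changed there, all drawn from those with higher mean scores, whereas 41413 were called in at least 1 comparison in the data. That simulation therefore does not test regions with low scores, such as the promoter regions of Chga, Dclk1 and Alox5. Start sites came from GENCODE on mm9, and region starts are printed as deposited. The promoter windows came from RefSeq and were placed on mm9 with Python 3.11.15. Named from each list were the 2 transcripts with the largest change among those called without overlap in EN vs CV and in EN vs ENR. The members and the lists were chosen with earlier results of these data known. Alternatives changed 1 choice at a time, DESeq2 1.42.0 among them, and log2(copies + 1) was added after the data were seen. The Hnf4g knockout and wild-type ENR RNA libraries, the protein data and the authors' own comparisons were not analysed here. Same-numbered libraries of different cultures did not deviate together in RNA (mean r = 0.013). In ATAC they did in part (mean r = 0.17, beside -0.056 for other pairs), but not every pair passed the limit of 0.1. The number was therefore no block in the main tests and was used as an alternative.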

Additional observations from a re-analysis of the deposited data

Results flagged for a closer look

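In groups of 4 libraries, a single library was set apart from the others where its gap to the nearest one took up most of the range of the group. Chance flags about 1 in 20 groups where values are continuous and normally spread. That rate does not hold for groups of a few small whole numbers, such as Alox5 in CV and the low ATAC scores below. Of 24 groups of RNA values 2 were set apart. Alox5 in CV was 0.2695 CPM in replicate 1, from 2 counts, beside 0 in the others. Chgb in EN was 465.1 CPM in replicate 3, beside 812 to 868 CPM in the others, and Chga was also lowest in that library (151 CPM), whereas Reg4 (667 CPM) and Pcsk1 (71.7 CPM) lay within the range of the other EN libraries. Chgb held 16.6% of the enteroendocrine TPM sum in that library and Reg4 held 72.7%.

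Of 30 groups of ATAC scores at promoter regions 5 were set apart, all of small whole numbers. The region at Avil scored 17 in EN replicate 1, beside 5 to 7 in the others. The first region of Dclk1 scored 2 in 1 EN library beside 1 in the rest, its second region scored 0 in 1 EN and in 1 ENR library, and the region of Pcsk1 over its start scored 7 in EN replicate 2 beside 13 and 14.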

How the results depend on the processing

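All 8 members were called in each RNA comparison, and each of 23 alternatives kept every direction. Of the calls, 2 were lost. Pcsk1 between CV and ENR was 0.27 with spike-in scaling (adjusted p = 0.251) and 0.73 and 0.65 on the deposited copies (adjusted p = 0.0384), and Alox5 between EN and ENR was 3.12 on log2(copies + 4.56e-11) (adjusted p = 0.601). Members called were thus 7 in those settings. With the replicate block all 8 were called in each comparison, and of all transcripts 7064, 6705 and 5457 were called, beside 7096, 6756 and 5567. The labels give the numbers no meaning. Same-numbered libraries correlated by -0.059 to 0.095 in RNA and by 0.07 to 0.46 in ATAC (mean 0.17, beside -0.056 for other pairs), where not every pair passed 0.1, the limit for a pairing. Members' values between EN and ENR ran from 0.97 for Avil to 3.38 for Chga over the alternatives, beside 1.46 to 2.13.

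Scaling moved the median of all transcripts for EN against CV, EN against ENR and CV against ENR from -0.08, -0.01 and -0.01 to -0.49, -0.52 and -0.10 with spike-ins, to -0.34, -0.14 and 0.13 on log2(TPM + 1) and to 0.62, 0.88 and 0.21 on log2(copies + 1). The split of calls moved with it. Higher and lower calls were 3301 and 3455 between EN and ENR, 1094 and 4275 with spike-ins and 5497 and 789 on copies + 1. Between EN and CV they were 3267 and 3829, 1473 and 4292, and 4418 and 1258. Between CV and ENR 5567 transcripts were called, but 2636 with spike-ins, 1870 on copies + 1 and 1385 on copies + the smallest value.

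At promoters, ATAC calls stood at 5 regions with and without the replicate block, which gave 44916 calls over all regions beside 41413. Leaving out single libraries gave 0 to 1 promoter regions for H3K27ac and 0 to 1 for H3K4me3, in place of 0. The 1 region came without ENR replicate 2 for H3K27ac, and without ENR replicate 1 or EN replicate 4 for H3K4me3. Over all regions the block gave 0 calls for H3K27ac beside 7625, 4854 beside 6732 for H3K4me3 and 300 beside 1060 for H3K27me3. No trend gave 924 for H3K27ac and 121 for H3K27me3, and quantile normalization gave 4543, 3979 and 368. The causes were not tested. The ATAC calls at the promoters of Hpgds, Avil and Scg5 held in all 16 alternatives run for single regions. So did the call of CV above ENR at the first promoter region of Dclk1, with an adjusted p of at most 0.015 in limma. That call ran opposite to the RNA of Dclk1. It rests on low scores, with means of 3.5 in CV and 0.5 in ENR beside medians of 5 and 5.25 over all regions. Dclk1 has 3 annotated start sites, and which of them the measured transcript uses was not tested. Depth limits the tuft genes in CV, where Dclk1, Ptgs1 and Alox5 had 0 to 5 counts per library.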
